A study of Mus musculus with 6 samples.

Results

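CD39 and the enzymes that handle adenosine outside the cell were followed in CD8 T cells sorted from the pancreas of mice with and without B7x on their beta cells. The group is 5 genes chosen by symbol, Entpd1, Nt5e, Adora2a, Ada and Dpp4, of which 4 had an array probe that the platform annotation gives to that gene alone. These 4 stand among 19929 genes named in the same way, and each had a single probe. All 4 had a mean log2 value over the 6 arrays above the limit of 5.47 and were tested. Entpd1 passed that limit only through the arrays from mice with B7x, since its mean in the other group was 5.13. Adora2a, which encodes an adenosine receptor, was not analysed here, nor were the other adenosine receptor genes.

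Both groups of mice carried the AI4 antigen receptor transgene on the C57BL/6.H2g7/g7 background, so that their CD8 T cells recognise a beta cell antigen, and no age is given in the sources used here. The 3 AI4 arrays came from mice that developed type 1 diabetes (T1D). The 3 Rip-B7xAI4 arrays came from mice resistant to T1D that also carried Rip-B7x, in which the rat insulin promoter directs the inhibitory B7 family ligand B7x to beta cells, so the transgene acts in the islet and not in the T cells that were measured. Each array held RNA of cells pooled from pancreata and sorted with an antibody to CD8 and the MimA2/H-2Db tetramer. B7x on beta cells and freedom from disease cannot be told apart in this design. In sorted bulk RNA, fewer cells that carry a transcript and less transcript per cell cannot be told apart either.

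ATP released by stressed or dying cells is a danger signal for immune cells. CD39, the product of Entpd1, sits on the cell surface and cleaves extracellular ATP and ADP to AMP, and CD73, the product of Nt5e, cleaves AMP to adenosine. Adenosine dampens T cells through receptors that raise cyclic AMP, until adenosine deaminase, the product of Ada, turns it into inosine. Dpp4 encodes CD26, a surface peptidase of T cells that in humans anchors adenosine deaminase. In CD8 T cells, CD39 is known as a surface marker of chronically stimulated, terminally exhausted cells, while CD73 is commonly carried by naive and memory cells. CD39 is also found on macrophages, B cells, regulatory T cells and endothelium.

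Entpd1 was the member with the largest difference, and the bases before its annotated starts are shown because it is the gene on which the results turn. The RefSeq promoter table of build GRCm38.p6 held all 4 members, and it gave Entpd1 a pair of starts on the forward strand of chromosome 19. Each line holds the 250 bases upstream of a start, at chr19:40612116-40612365 and chr19:40659520-40659769, 5′ to 3′, and capitals mark the half-site of the cyclic AMP response element. The half-site is TGACG, read on both strands, so the capitals show its reverse complement.
Entpd1 first start: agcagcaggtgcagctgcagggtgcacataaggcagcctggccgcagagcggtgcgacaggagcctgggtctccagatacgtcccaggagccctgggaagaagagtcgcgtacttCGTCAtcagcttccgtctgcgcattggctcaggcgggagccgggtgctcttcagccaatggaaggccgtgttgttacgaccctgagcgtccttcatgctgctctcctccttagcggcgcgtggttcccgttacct
Entpd1 second start: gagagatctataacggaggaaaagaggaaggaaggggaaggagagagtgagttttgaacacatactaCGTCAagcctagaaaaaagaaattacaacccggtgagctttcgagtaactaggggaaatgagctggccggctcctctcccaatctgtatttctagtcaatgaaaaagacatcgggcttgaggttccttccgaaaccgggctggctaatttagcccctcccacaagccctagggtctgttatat
The half-site lay at -135 to -131 relative to the first start and at -183 to -179 relative to the second. It was present in 17.7% of 32817 windows of this length before annotated starts. The windows of Nt5e (chr9:88327359-88327608), Ada (chr2:163750240-163750489) and Dpp4 (chr2:62412232-62412481) held 0 half-sites. The full element TGACGTCA, the hypoxia response core ACGTG, the Runx site TGTGGT and the AP-1 site TGANTCA, which do not contain each other except for the half-site within the full element, had 0 matches in any of the 5 windows. They occur in 1.55%, 16.6%, 14% and 6.75% of all windows. The letters were chosen after the sequences had been seen, and a match describes the sequence only.

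The arrays were compared before the members were. Array medians over all probes lay between 5.94 and 6.10. AI4 replicate 1 stood apart, with a mean Pearson correlation across genes of 0.877 with the other arrays against 0.904 to 0.927 for the rest. The 10 CD8 T cell marker genes with a probe had mean log2 values between 9.66 and 10.41 over all 6 arrays, with Thy1 and Cd2 as the brightest. These genes went both ways, with 4 higher and 6 lower in Rip-B7xAI4, and 0 passed an adjusted p of 0.05. Cd8b1 read 10.48, 11.34 and 11.49 on AI4 arrays, then 9.53, 10.73 and 10.05 on the Rip-B7xAI4 ones. Cd6 and Cd8a differed by -0.85 ± 0.43 (SE) and -0.69 ± 0.35, and Cd3e by 0.88 ± 0.42 with no overlap. Cd8b1, Cd6, Cd8a and Cd3e were named after their values were seen. Their bearing on Entpd1 was not tested. Myeloid markers, averaged over 21 genes, reached 8.67 and 8.69 on arrays 1 and 3 of Rip-B7xAI4, against 6.07 on array 2 and 5.93 to 6.47 on AI4 arrays. Results are therefore given with and without these arrays where they move. Of all 13950 genes tested, 0.00717% passed an adjusted p of 0.05, which is 1 gene and none of those described here.

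Entpd1 (probe 10463070) had more signal in every Rip-B7xAI4 array than in any AI4 array. AI4 replicates 1, 2 and 3 read 4.85, 4.68 and 5.87 on the log2 scale, and the same numbers of Rip-B7xAI4 read 7.74, 7.05 and 8.05. The groups did not overlap, and the lowest Rip-B7xAI4 array lay 1.17 above the highest AI4 array. Of all genes tested, 17.9% had groups that did not overlap, 5.99% with Rip-B7xAI4 above. The 3 AI4 values lay below the median named gene of their arrays (6.15, 6.09 and 6.08) and the 3 Rip-B7xAI4 values above it (5.97, 6.03 and 6.07). The AI4 values are thus dim, and because no measure of background was used here no fold is given.

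Entpd1 averaged 5.13 ± 0.65 (SD, n = 3) across AI4 arrays, whereas Rip-B7xAI4 arrays averaged 7.61 ± 0.51 (SD, n = 3). The log2 difference was 2.48 ± 0.40 (SE) in limma, with a 95% interval from 1.53 to 3.42. By p it was number 40 of 13950 genes, yet its adjusted p was 0.171, so it did not pass the limit of 0.05 over all genes. Its place among the tested genes rests on the Rip-B7xAI4 arrays, and in limma without the brightness filter its adjusted p was 0.199. Its values alone gave an exact two-sided permutation p = 0.1, the smallest that 3 against 3 arrays allow. The difference was larger than the SD of either group.

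**Figure D1:**
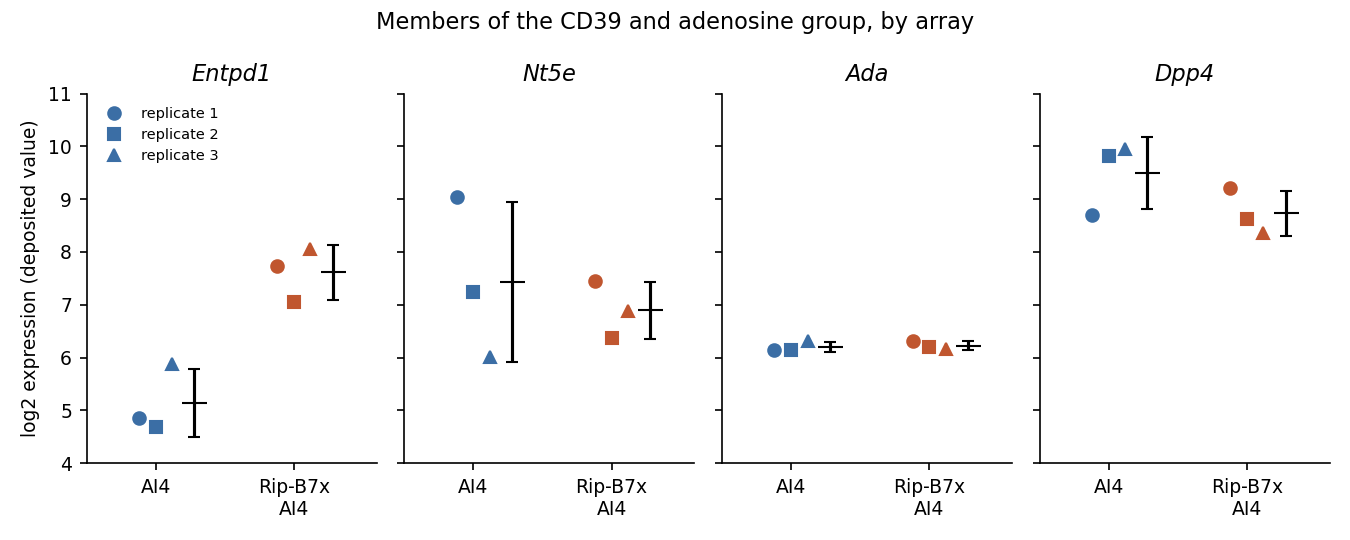
Log2 expression of the 4 measured members in each array, with symbols for the replicate number and a bar for the group mean ± SD (n = 3). Entpd1 is the member whose groups do not overlap (4.68 to 5.87 against 7.05 to 8.05), Nt5e is spread widely by AI4 replicate 1 at 9.03, and Ada lies between 6.15 and 6.32 throughout.

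Myeloid markers moved with the group in part, and macrophages are a known source of CD39. The part of myeloid cells in the Entpd1 values was not tested. In Rip-B7xAI4 replicate 2 the myeloid mean lay 0.40 below the highest AI4 array and the mean of 8 neutrophil markers 0.01 above it, while Entpd1 lay 1.17 above it. All 20 tested myeloid genes had a positive difference, against 39% of all genes tested, with a median of 1.6. In 3 of them (15%, against 5.99% of all genes) Rip-B7xAI4 lay wholly above AI4. Clec7a, one of these 3, and Adgre1 had AI4 means of 5.45 and 5.30, so they were tested only through Rip-B7xAI4. The brightest myeloid genes, Ctss and Tyrobp, read 9.40 and 8.15 on Rip-B7xAI4 replicate 2, within their AI4 ranges of 9.15 to 9.94 and 7.27 to 9.89. Not every such gene was at AI4 level there, since Cd68 stood at 7.35 against 6.21 to 6.49 in AI4, S100a8 at 6.01 against 4.71 to 5.24 and S100a9 at 7.68 against 6.19 to 7.29. Cd68 and S100a8 were named after their values were seen. Without Rip-B7xAI4 replicates 1 and 3 together, Entpd1 differed by 1.91 ± 0.55 (SE), with an adjusted p = 0.942, from a single array assumed to vary like the others. With the myeloid mean as a covariate it differed by 1.94 ± 0.47 (adjusted p = 0.794). Over all 17 alternatives its difference was positive, between 1.91 and 2.85, and its adjusted p lay between 0.0739 and 0.942.

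**Figure D2:**
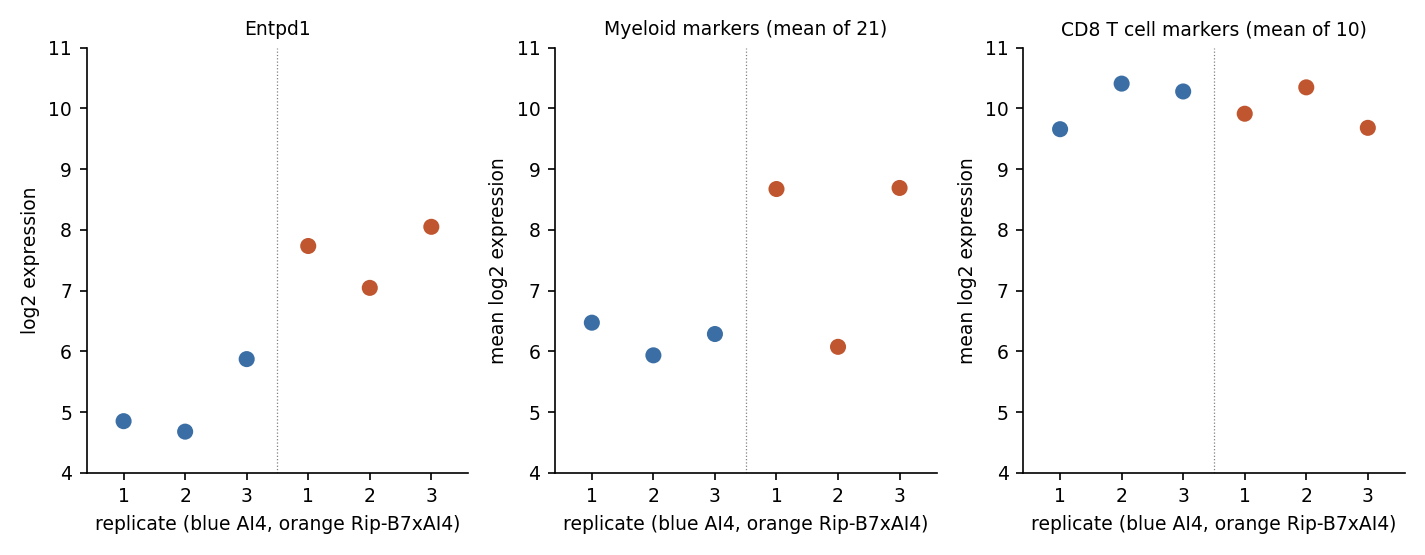
Log2 expression of Entpd1, the mean log2 of 21 myeloid markers and the mean log2 of 10 CD8 T cell markers in each array, AI4 in blue and Rip-B7xAI4 in orange. In Rip-B7xAI4 replicate 2 the myeloid mean is 6.07, inside the AI4 range, and Entpd1 is 7.05, above all AI4 arrays. Single myeloid genes such as Cd68 also lay above all AI4 arrays there, and the part of myeloid cells was not tested.

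Markers of other cells known to carry CD39 are given beside this result, and their part in the Entpd1 values was not tested. CD4 and regulatory T cell markers differed by 0.14 in the mean of 6 genes, and their members went both ways. Foxp3, which defines regulatory T cells, differed by -0.13 ± 0.15 (SE), with 6.75 to 6.87 on Rip-B7xAI4 arrays and 6.89 to 6.98 on AI4 arrays, and Ikzf2 by -0.00 ± 0.42. Il2ra, which activated CD8 T cells also carry, differed by 0.88 ± 0.36 (adjusted p = 0.566) and Cd4 by 0.24 ± 0.25, both named after their values were seen. Averaged over 9 genes, B cell markers read 5.63 to 6.07 on AI4 arrays, then 6.45, 5.68 and 6.59 on the Rip-B7xAI4 ones, again low in replicate 2. Bank1 and Pax5 were the brightest of that list and differed by 1.19 ± 0.63 (SE) and 0.20 ± 0.26. Endothelial markers differed by -0.30 in the mean of 10 genes, with Pecam1 at -1.05 ± 0.31 and Vwf at -0.26 ± 0.21, and fibroblast markers by -0.29 in the mean of 9 genes, with Col1a1 at -0.17 ± 0.20 and Col1a2 at -0.21 ± 0.19. Averaged over 7 genes, dendritic cell markers read 6.86 on Rip-B7xAI4 replicate 3 and 5.38 to 5.61 on the other arrays. Clec9a and Xcr1, too dim over all arrays to be tested, read 7.85 and 7.75 on that replicate. Their highest values elsewhere were 4.63 and 5.46. Itgax, which effector CD8 T cells can also express, differed by 1.43 ± 0.23 (adjusted p = 0.179) with no overlap, and Siglech by 0.23 ± 0.37. Neutrophil markers differed by 1.58 in the mean of 8 genes, and the 7 tested had a median of 1.22 and a range from 0.39 to 3.79. Of these, S100a8 had an AI4 mean of 5.03 and was tested only through its Rip-B7xAI4 values. S100a9 and Camp, the brightest neutrophil markers, differed by 3.79 ± 1.08 and 0.78 ± 0.45. NK cell markers differed by 0.44 in the mean of 5 genes. Klrd1 and Eomes, also used by CD8 T cells, differed by -0.44 ± 0.31 and 1.04 ± 0.49. Klrb1c, too dim to be tested, read 5.37 to 6.18 on Rip-B7xAI4 arrays and 4.57 to 4.75 on AI4 arrays. Array values have no true 0, so no marker can be called absent. The acinar genes Cela2a and Pla2g1b and the beta cell genes Mafa and Ins2 differed by -0.34 to -0.04.

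The genes whose pattern over the 6 arrays was most like that of Entpd1 were Ctsb, Ifi27l2a and Dram2. Likeness was the root mean square difference between log2 values after each gene was centred on its own mean, and Entpd1 itself had a spread of 1.33 on that scale. Ctsb, the lysosomal protease cathepsin B, was nearest at 0.24, reading 6.19, 6.09 and 7.03 on AI4 arrays, then 9.24, 8.05 and 9.81 on the Rip-B7xAI4 ones. Ifi27l2a, an interferon-inducible gene, followed at 0.29 and Dram2, a regulator of autophagy, at 0.32. All 3 had their lowest Rip-B7xAI4 array above their highest AI4 array, and AI4 replicate 3 was the highest AI4 array in each, as in Entpd1. Such sharing follows from the choice of these 3 genes for likeness and is no separate result. Their own differences were 2.60 ± 0.48 (SE), 2.31 ± 0.33 and 2.00 ± 0.45.

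Nt5e (probe 10587639), the enzyme of the next step, had groups that overlapped. AI4 arrays read 9.03, 7.24 and 6.02, whereas Rip-B7xAI4 arrays read 7.45, 6.36 and 6.87. The AI4 arrays alone held both the highest and the lowest value of all 6. The means were 7.43 ± 1.52 (SD, n = 3) and 6.89 ± 0.54 (SD, n = 3). The difference was -0.54 ± 0.73 (SE), with a 95% interval from -2.28 to 1.21, and did not pass (adjusted p = 0.744). AI4 replicate 1 decides its direction, because without that array the difference was 0.27 ± 0.47 (adjusted p = 0.893). Without AI4 replicate 3 it was -1.24 ± 0.60 (adjusted p = 0.455).

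The 3 genes nearest to Nt5e shared the high value of AI4 replicate 1, which follows from their choice for likeness. Aven, an inhibitor of apoptosis, was nearest at 0.35 and stood at 9.24 in that array and 6.97 to 8.08 in the other five. Rbsn, an endosomal fusion protein, and Cyb5r3, a cytochrome b5 reductase, followed at 0.39 and 0.40, with 8.98 and 8.34 in AI4 replicate 1. AI4 replicate 1 is also the array with the lowest mean correlation with the others.

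**Figure D3:**
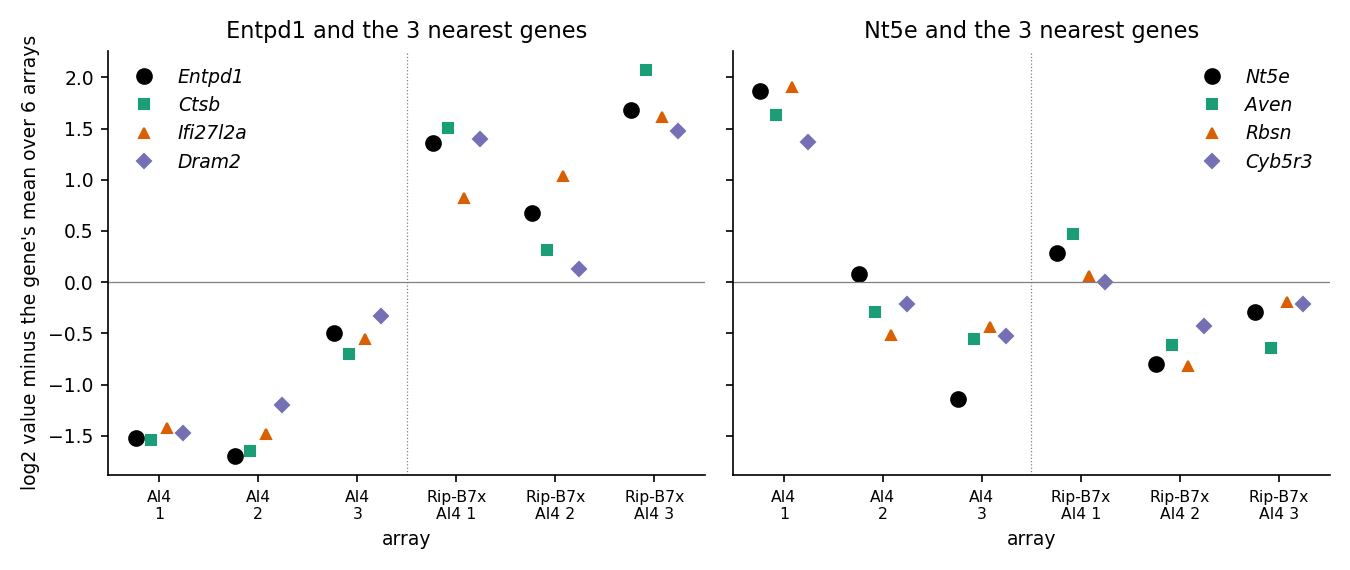
Log2 values of Entpd1 (left) and Nt5e (right) with the 3 genes nearest to each, every gene centred on its mean over the 6 arrays. The Entpd1 set is split by group, with all 3 Rip-B7xAI4 arrays above 0, and the Nt5e set is led by AI4 replicate 1. The shared patterns follow from how the nearest genes were chosen.

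Ada (probe 10489391) varied least of the members. AI4 arrays read 6.15, 6.15 and 6.31 and Rip-B7xAI4 arrays 6.32, 6.19 and 6.16, so the groups lay on top of each other. The difference was 0.02 ± 0.16 (SE), with a 95% interval from -0.35 to 0.40, and did not pass (adjusted p = 0.957). The spread of Ada over the 6 arrays, 0.07 on the scale used for likeness, compares with 1.33 for Entpd1, 0.97 for Nt5e and 0.60 for Dpp4. At so small a spread its nearest genes, Proz, Dido1 and Htt at 0.04 each, say only that they were as even.

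Dpp4 (probe 10483046), the gene of CD26, had a negative difference that did not pass. AI4 arrays read 8.70, 9.82 and 9.95, and Rip-B7xAI4 arrays 9.20, 8.63 and 8.36. AI4 replicates 2 and 3 lay above all Rip-B7xAI4 arrays, but AI4 replicate 1 lay among them, so the groups overlapped. The means were 9.49 ± 0.69 (SD, n = 3) and 8.73 ± 0.43 (SD, n = 3). The difference was -0.76 ± 0.39 (SE), with a 95% interval from -1.69 to 0.17 (adjusted p = 0.582). Without AI4 replicate 1 it was -1.15 ± 0.28 (adjusted p = 0.410), with array weights -1.06 ± 0.27 (adjusted p = 0.164), and its sign was negative under all 17 alternatives.

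Utrn (utrophin), Zfp329 (a zinc finger gene) and Dipk2a were the genes nearest to Dpp4, at 0.12, 0.16 and 0.16. Utrn read 8.03, 8.76 and 9.13 on AI4 arrays, then 8.46, 7.86 and 7.48 on the Rip-B7xAI4 ones. As in Dpp4, AI4 replicate 1 was the lowest AI4 array and Rip-B7xAI4 replicate 1 the highest of its group, which again follows from the choice for likeness. The differences of the 3 genes, -0.71 ± 0.36 (SE), -0.76 ± 0.28 and -0.71 ± 0.29, did not pass either.

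Whether the members changed unequally was asked within each array, by taking the log2 value of Entpd1 minus that of another member. Against Dpp4, AI4 arrays gave -3.85, -5.14 and -4.08 whereas Rip-B7xAI4 arrays gave -1.47, -1.58 and -0.31, so the difference of differences was 3.24 with no overlap. Against Nt5e it was 3.01 and against Ada 2.45, again without overlap. All 3 comparisons share the same Entpd1 values, so they are not separate results. Ada hardly varied, and the value against it nearly repeats the difference of 2.48 of Entpd1 itself. Each of these 3 comparisons gave an exact two-sided permutation p = 0.1, also after adjustment over the 3, which is the smallest that 3 against 3 arrays allow, so none can pass 0.05. Leaving out single arrays moved them to between 2.83 and 3.49 for Dpp4, 2.07 and 4.09 for Nt5e, and 2.20 and 2.77 for Ada. Only the change between groups is read from these values, since probes of different genes are not on 1 scale.

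Other genes of the pathway, 91 with a probe of 105 listed, showed no shift as large as that of Entpd1. Of the 70 tested, 0 passed the adjusted limit in limma. At an unadjusted p of 0.05, 4 were higher and 4 lower in Rip-B7xAI4, which is 5.71% each way against 5.56% and 3.17% of all genes tested. Rip-B7xAI4 lay wholly above AI4 for 6 of them (8.57%, against 5.99% of all genes) and wholly below for 10 (14.3%, against 11.9%). Their median difference was -0.11, beside -0.10 for all genes. Of all genes with p under 0.05, 63.7% were higher in Rip-B7xAI4 as deposited, 54.1% after quantile normalization and 75.0% after median centring.

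ATP channels and receptors for extracellular nucleotides come first in the pathway, and none of the 10 tested passed. P2ry13, an ADP receptor of myeloid cells, differed by 0.73 ± 0.31 (SE), from 5.95 to 6.18 on AI4 arrays, then 6.78, 6.19 and 7.39 on the Rip-B7xAI4 ones. Its groups did not overlap, but replicate 2, whose mean of myeloid markers lay inside the AI4 range, barely cleared the AI4 values of P2ry13. The part of myeloid cells was not tested. P2rx7, the ATP-gated channel through which T cells can die in high ATP, differed by -0.24 ± 0.24, the UDP receptor P2ry6 by -0.33 ± 0.17 and the ATP-gated channel P2rx2 by -0.33 ± 0.23. The median of these 10 genes was -0.14.

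Of the other ecto-enzymes that cleave nucleotides, 0 of 9 tested passed, and their median was -0.10. Entpd7, an intracellular relative of CD39, differed by 0.41 ± 0.18 (SE), with no overlap between groups, and Entpd4, a Golgi relative, by -0.36 ± 0.30. Bst1 (CD157), an NAD-cleaving enzyme of myeloid cells and a relative of CD38, differed by 1.43 ± 0.73. AI4 arrays read 5.45 to 5.80, and Rip-B7xAI4 arrays 8.60, 5.39 and 7.14, so that replicate 2 lay below all AI4 arrays. Without Rip-B7xAI4 replicates 1 and 3 the difference of Bst1 was -0.22, from a single Rip-B7xAI4 array. The part of myeloid cells in its values was not tested.

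Adenosine leaves the extracellular space through nucleoside transporters and is then rebuilt or broken down inside the cell. None of the 6 transporter genes tested passed, and the equilibrative transporter Slc29a1 differed by 0.12 ± 0.18 (SE), the concentrative transporters Slc28a2 and Slc28a1 by -0.35 ± 0.30 and -0.26 ± 0.24. Of 16 tested genes listed for handling adenosine and related nucleotides inside the cell, salvage enzymes among them, 0 passed. By sign, 6 had a positive and 10 a negative difference (62.5% negative, against 61% of all genes), with a median of -0.07 beside -0.10 for all genes. At an unadjusted p of 0.05 in limma, 3 were higher (18.8%, against 5.56% of all genes) and 0 lower (against 3.17%). After quantile normalization 1 of the 16 was higher, against 620 of all 13950 genes. Xdh, the xanthine oxidoreductase that makes uric acid, read 6.49 to 6.65 on AI4 arrays, then 8.31, 7.12 and 7.29 on the Rip-B7xAI4 ones, a difference of 1.02 ± 0.32 (adjusted p = 0.501). Hprt, which salvages hypoxanthine and guanine, differed by 0.93 ± 0.35 with no overlap, and Nt5c3, a nucleotidase of pyrimidine monophosphates, by 1.02 ± 0.43 with overlap. Adk, which phosphorylates adenosine to AMP inside the cell, differed by -0.41 ± 0.20, and Pnp, which cleaves inosine, by 0.77 ± 0.44.

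Adenosine receptors act through cyclic AMP. Of 23 genes of cyclic AMP signalling tested, 0 passed, 17 had a negative difference (73.9%, against 61% of all genes), and 8 (34.8%, against 11.9% of all genes) lay wholly below AI4. After median centring 5 lay wholly below (21.7%, against 8.45% of all genes). At an unadjusted p of 0.05 in limma, 4 were lower (17.4%, against 3.17% of all genes). They were the adenylate cyclase Adcy6, the anchoring protein Akap13, and the cyclic AMP phosphodiesterases Pde4b and Pde4d. Both phosphodiesterases were named after their values were seen. The list holds cyclases as well as phosphodiesterases, so its counts give no direction of signalling. Adcy6 differed by -0.56 ± 0.18 (SE), Akap13 by -0.67 ± 0.25, Pde4b by -0.53 ± 0.20 and Pde4d by -0.57 ± 0.22. Atf1, a transcription factor of the family that binds cyclic AMP response elements, was higher, from 7.76 to 8.20 on AI4 arrays against 8.48 to 8.84 on the Rip-B7xAI4 ones, a difference of 0.70 ± 0.19 (adjusted p = 0.464). Crem, a target and modulator of the same elements, differed by 0.07 ± 0.52 and spanned 5.29 to 7.27 within AI4. The list median was -0.19, beside -0.10 for all genes. The all-gene shares are not matched for brightness, whose part was not tested. Of the 8 genes wholly below AI4, Adcy6, Pde4b and Akap1 were dim, with Rip-B7xAI4 means of 5.49, 5.48 and 5.61. Adcy1, Adcy9, Pde4d, Adcy4 and Akap13 averaged 6.02 to 9.18 there. Tested endothelial, acinar, fibroblast and beta cell markers were 80% to 100% negative, with 28.6%, 20%, 14.3% and 0% wholly below. B cell markers were 14.3% negative.

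Of the peptidases listed beside Dpp4, 6 were tested, 0 passed and 4 had a positive difference (66.7%, against 39% of all genes). Dpp8, a cytosolic relative, ranged from 6.12 to 8.60 within AI4 and differed by 0.74 ± 0.70 (SE). Prcp, a lysosomal carboxypeptidase, differed by 0.44 ± 0.23 and Dpp7, a vesicular peptidase, by -0.34 ± 0.23.

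**Figure D4:**
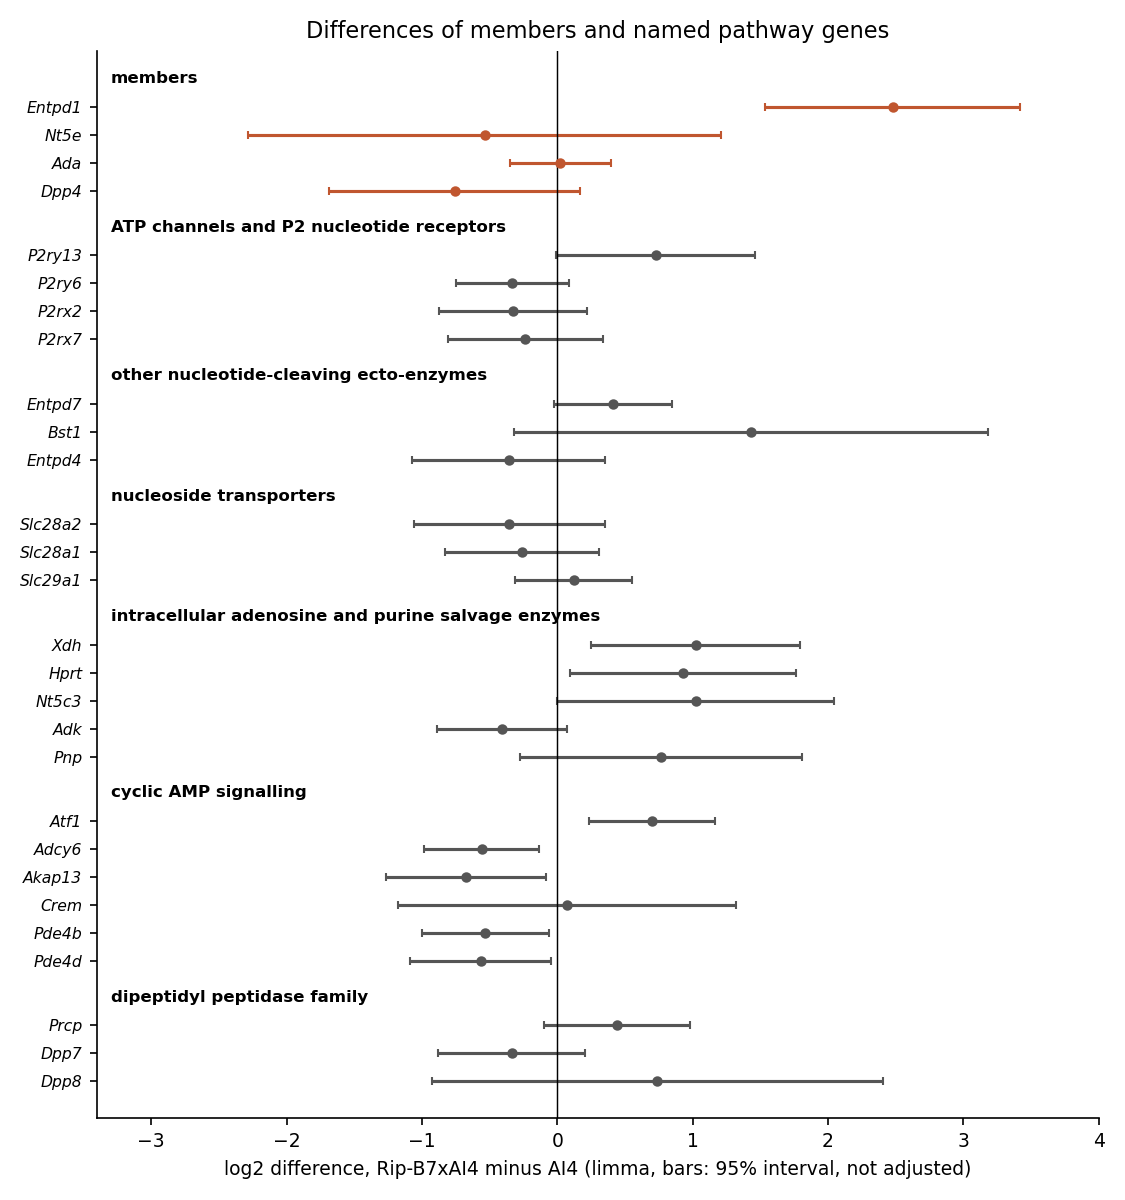
Log2 difference, Rip-B7xAI4 minus AI4, of the 4 measured members and of the named pathway genes by role, with unadjusted 95% intervals from limma. Entpd1 (2.48, interval 1.53 to 3.42) has the point farthest to the right, though intervals such as that of Bst1 overlap its own, and the intervals of Nt5e, Ada and Dpp4 include 0.

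**Figure D5:**
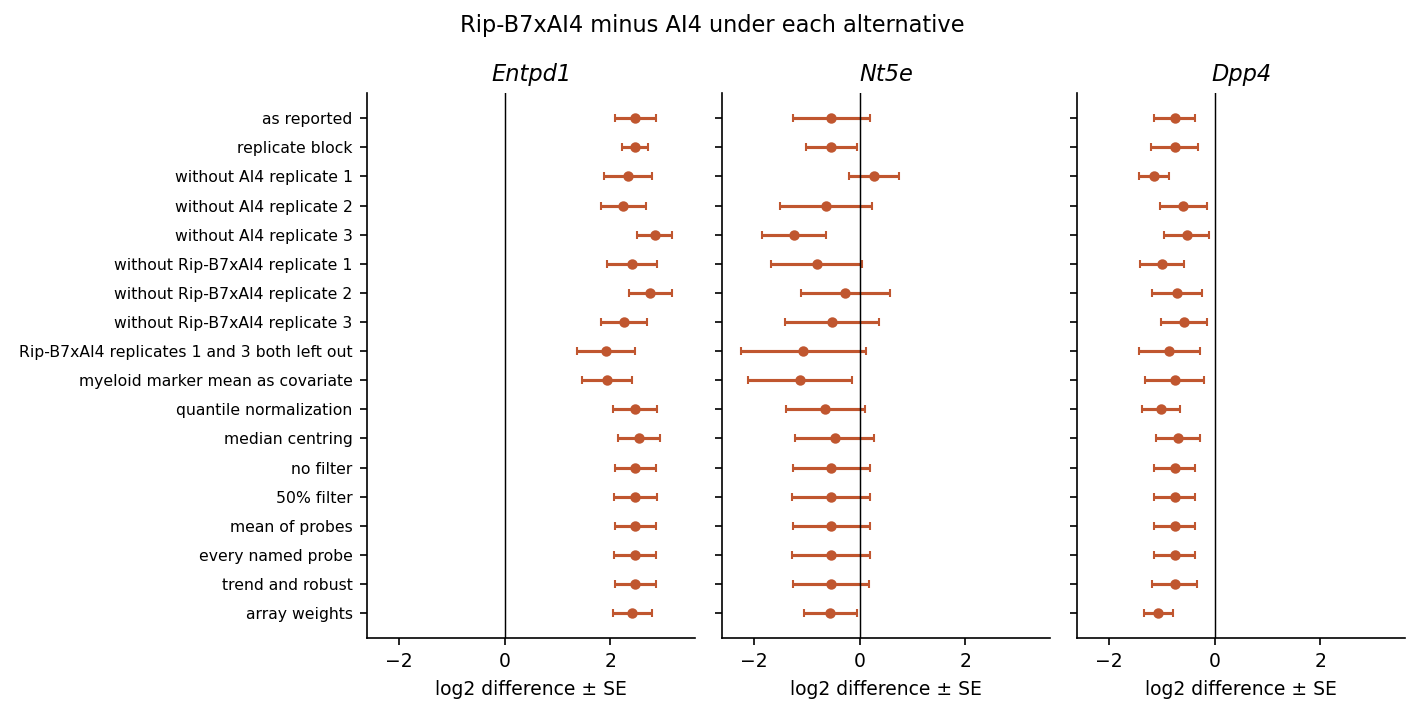
Log2 difference ± SE of Entpd1, Nt5e and Dpp4 as reported and under each of 17 alternatives. Entpd1 stays between 1.91 and 2.85 and Dpp4 below 0, while Nt5e turns from -0.54 to 0.27 without AI4 replicate 1.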

How the data were processed

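RNA of sorted CD8 T cells was measured on 6 single-colour arrays, and groups were taken from the titles. Affymetrix Expression Console made the values, per the submitters' processing notes, which name neither its version nor the summarisation. For each probe and array a single value was deposited by the authors, taken as log2 from its range. Of 28325 probes, 21760 had 1 gene symbol, 1621 several and 4944 none; symbols were checked by gene ID against RefSeq genes of GRCm38.p6 (21669 matched). For each gene the probe with the highest mean was kept, and after dropping the dimmest 30%, 13950 genes were tested. The fit used limma 3.58.1 under R 4.3.3, comparing group means of log2 values by moderated statistics, and p-values were adjusted by Benjamini-Hochberg over all genes tested. Where only a difference and its SE are given, the adjusted p was above 0.05. Arrays have no counts, so their number limits the precision. Replicates are labelled biological, but whether pools shared mice is not given, so p-values measure the spread between these samples.

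Members, gene lists and alternatives were chosen with earlier results of these data known. Named were the members, the 3 genes of each pathway list with the smallest p and some genes fixed by name. Also named were the 3 genes nearest to each member and the 2 brightest of each marker list. Pde4b, Pde4d, Cd68, S100a8, Il2ra and Cd4 were added after their values were seen. So were Adgre1, Clec7a, Clec9a, Xcr1, Klrb1c, Cd8a, Cd8b1, Cd6 and Cd3e. Fixed by name but not analysed here were Cd38 and Enpp1. The fit was also run on 10 simulated sets of 13950 genes, with 200 changed by fixed amounts. It recovered 22.0% of genes changed by 1 log2 unit and 88.4% of those changed by 2, with 5.02% false calls. These shares belong to that setting and are not the power for the genes described here, since Entpd1 at 2.48 did not pass.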

Additional observations from a re-analysis of the deposited data

How the results depend on the processing

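The direction of Entpd1 and Dpp4 was the same under all 17 alternatives, and neither passed under any. For Nt5e the direction turned without AI4 replicate 1, and leaving out single arrays gave -1.24 to 0.27. Ada lay so near 0 that its sign turned under 5 alternatives, at -0.023 to 0.077 over single arrays left out, -0.0071 with the myeloid covariate and -0.0078 when Rip-B7xAI4 replicates 1 and 3 were both dropped. Of the named pathway genes, Bst1 turned to -0.22 without those arrays and -0.037 with the covariate, Slc29a1 to -0.054 and -0.043, and with array weights Slc28a2 turned to 0.032 and Slc28a1 to 0.027. With single arrays left out Crem lay between -0.44 and 0.55 and Slc29a1 between -0.011 and 0.21.

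The count of genes passing over all genes was 1, and 0 with the replicate block, with the covariate and when Rip-B7xAI4 replicates 1 and 3 were both dropped, 38 with array weights, and 0 to 22 with single arrays left out. Genes higher at an unadjusted p of 0.05 numbered 776; the count was 512 without those arrays, 457 with the covariate, 1251 with array weights and 487 to 955 with single arrays left out. Genes lower numbered 442; the count was 222 with the replicate block, 102 without those arrays, 117 with the covariate, 282 after median centring, 744 with no filter, 245 with the 50% filter, 1148 with array weights and 275 to 617 with single arrays left out. Of the pathway genes 4 were higher, but 0 without those arrays, 0 with the covariate, 7 with array weights and 2 to 4 with single arrays left out. And 4 were lower, but 1 with the replicate block, 0 without those arrays, 0 with the covariate, 2 after median centring, 2 with the 50% filter, 7 with array weights and 0 to 4 with single arrays left out. The cause of these changes in count was not tested. Some of these fits also used fewer arrays or another number of genes.

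Same-numbered arrays did not deviate together (correlations of deviations -0.08, 0.06 and -0.22 for numbers 1, 2 and 3), so the replicate numbers are not taken to pair the arrays. With the replicate block Entpd1 differed by 2.48 ± 0.25 (SE) with an adjusted p = 0.147, Nt5e by -0.54 ± 0.49, Ada by 0.02 ± 0.22 and Dpp4 by -0.76 ± 0.44, and the block changed no member's call. The pseudocount alternative was not run because the values are on a log scale.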
